A study of Drosophila melanogaster with 6 samples.

Results

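In adult heads of Drosophila melanogaster, 119 measured transcripts had at least 1 probe that was 4-fold or more lower in flies mutant for the topoisomerase gene Top3beta than in wild-type flies. The number was 98 with the mean of a transcript's probes, 102 with its brightest probe and 89 under median-difference scaling. The 119 were represented by 130 probes, of 16660 probes with a FlyBase transcript identifier measured on every array and 32162 probes in all. Total RNA of pooled heads from 3 preparations of Top3b26 and 3 preparations of wild type (WT) was labeled with Cy3 and hybridized to 1 single-color Agilent array each. Top3b26 is a mutant allele of Top3beta that arose by remobilization of a P-element, and its flies were a gift of another laboratory. WT is the w1118 stock from the Bloomington stock center. All 6 samples are labelled as adult heads on the W1118 background, and the sex of the flies is not given in the labels. Because each genotype came as 1 stock, the allele and other differences between the stocks cannot be told apart.

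Members were chosen by their values on these same arrays. A probe was taken if it carried a FlyBase transcript identifier, was well above background on all 6 arrays, had a mean level in Top3b26 lower than in WT by 2 or more on the log2 scale, and had all 3 Top3b26 levels under all 3 WT levels. The level of a probe is its log2 signal relative to the mean of its array, on a scale that is equal in spread between arrays, so that levels below the array mean are negative and a difference of 2 is 4-fold. The difference between the groups and their lack of overlap are therefore no findings for these probes, and they are given as a description. Among the 16660 measured probes, 131 (0.786%) had a difference at or under -2, and in 2835 (17.0%) every Top3b26 array was under every WT array. A single probe, for FBtr0302213, met the first condition and not the second, with levels of 0.14, 2.65 and -0.23 on Top3b26 1, 2 and 3 and of 2.39, 3.25 and 3.16 on WT 1, 2 and 3.

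Top3β is a topoisomerase that passes nucleic acid strands through a transient break in 1 strand, and it can act on RNA as well as DNA. In flies it binds TDRD3 and associates with FMRP and the RNA-induced silencing complex, and it has been studied for its part in heterochromatin and gene silencing. On these arrays a probe reports only RNA that holds the stretch of sequence it matches. For this reason, different probes of a transcript can report different RNA, and in RNA of whole heads, fewer cells of a type and less RNA per cell cannot be told apart.

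The files name these probes by transcript identifier only. A reference table of genes (Release 6) named 516 of the 32162 probes and 0 of the 130 members, so their roles are not given here, and they are called by their FlyBase identifiers. No probe was named for Top3beta, whose own level was not analysed here. Of 64 listed markers of head and other tissues, only the male-specific RNAs roX1 and roX2 had a named probe, so the head label was not checked against markers. Their 6 probes differed by between -0.15 and 0.93 (Top3b26 minus WT, log2), and Top3b26 2 was the highest array at most of them. A roX1 probe had levels of 3.51, 5.05 and 3.29 in Top3b26 and 2.53, 3.41 and 3.11 in WT. At another roX1 probe Top3b26 1 was the highest, with levels of 6.13, 6.01 and 5.71 in Top3b26 and 5.30, 5.79 and 5.86 in WT. The part of the sexes in the differences below was not tested. The median signal of an array ranged from 279 on Top3b26 2 to 1604 on Top3b26 3, which was 57.2 to 186 times that of its negative controls. The arrays lay on 2 slides, with Top3b26 1, WT 1 and WT 2 on slide 1 and Top3b26 2, Top3b26 3 and WT 3 on slide 2.

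Most of the decreases were close to the threshold. The median difference of the 130 probes was -2.77, a 6.83-fold lower level in Top3b26, and the quartiles were -3.35 and -2.23. Of the 130, 78 were lower by less than 3, 52 by 3 or more, 19 by 4 or more and 4 by 6 or more. The median difference of all measured FlyBase probes was -0.19, so that the members' median was -2.58 relative to it.

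The mean levels of the members ran from -4.21 to 6.62 in Top3b26 heads and from -1.35 to 10.30 in WT heads. Since the rule asked for a signal well above background in Top3b26 and a WT level higher by 2 or more, it kept out probes that were dim in WT, and the level of a probe also depends on how well that probe binds its RNA. In Top3b26, 64 probes stayed more than 4 above the lowest level well above background on each array, and only 1, for FBtr0072121, came within 1 of it.

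The transcript with the largest decrease was FBtr0100038, whose member probe was printed as 1 spot, so its spots could not be compared. Its level was 0.34, -2.07 and -3.23 on Top3b26 1, 2 and 3, against 7.89, 8.09 and 7.48 on WT 1, 2 and 3. The processed signal was 630, 49.98 and 95.5 on the Top3b26 arrays and 77894, 103601 and 141152 on the WT arrays. The difference was -9.47, with an SD of 1.82 in Top3b26 and 0.31 in WT (n = 3 each), and the highest Top3b26 level was 7.14 under the lowest WT level. No other member had as wide a gap between the groups. The difference was between -10.47 and -8.69 when any 1 array was left out, both of these without a Top3b26 array.

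The next decreases were in FBtr0072121, FBtr0299862 and FBtr0076531. FBtr0072121 had levels of -4.77, -3.13 and -4.73 in Top3b26 and 4.70, 3.91 and 2.74 in WT, a difference of -7.99. FBtr0299862 had levels of -4.05, -2.90 and -4.37 in Top3b26 and 2.83, 3.05 and 3.29 in WT, a difference of -6.83. FBtr0076531 had levels of -1.32, -0.67 and -2.07 in Top3b26 and 4.75, 5.21 and 5.03 in WT, a difference of -6.35. In these 3 the groups were at least 5.42 apart, and Top3b26 2 was the highest of the mutant arrays each time. Among all members, Top3b26 2 was the highest mutant array at 72 of 130 and Top3b26 3 the lowest at 83. Top3b26 3 was also the lowest mutant array at 70.0% of all measured FlyBase probes.

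A further 5 of the 10 largest decreases were alike in size. FBtr0112413 had levels of -2.97, -1.56 and -2.87 in Top3b26 and 2.61, 3.63 and 2.52 in WT. FBtr0074745 had levels of -1.67, -1.15 and -1.83 in Top3b26 and 3.76, 3.75 and 3.84 in WT. FBtr0075048 had levels of -2.30, -3.16 and -2.17 in Top3b26 and 2.79, 3.10 and 2.07 in WT. Their differences were -5.39, -5.34 and -5.20, and each was lower than WT by over 4 on every mutant array. FBtr0339797 had levels of -3.01, -2.26 and -3.71 in Top3b26 and 1.84, 2.05 and 2.06 in WT, a difference of -4.98. FBtr0081306 had levels of -1.88, -1.50 and -1.998 in Top3b26 and 2.91, 3.22 and 3.24 in WT, a difference of -4.92. All 5 had the 3 mutant arrays within 1.45 of each other. Their order was not fixed by these arrays, since without Top3b26 2 FBtr0339797 was at -5.35 and FBtr0081306 at -5.06, both lower than FBtr0075048 at -4.89.

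**Figure D1:**
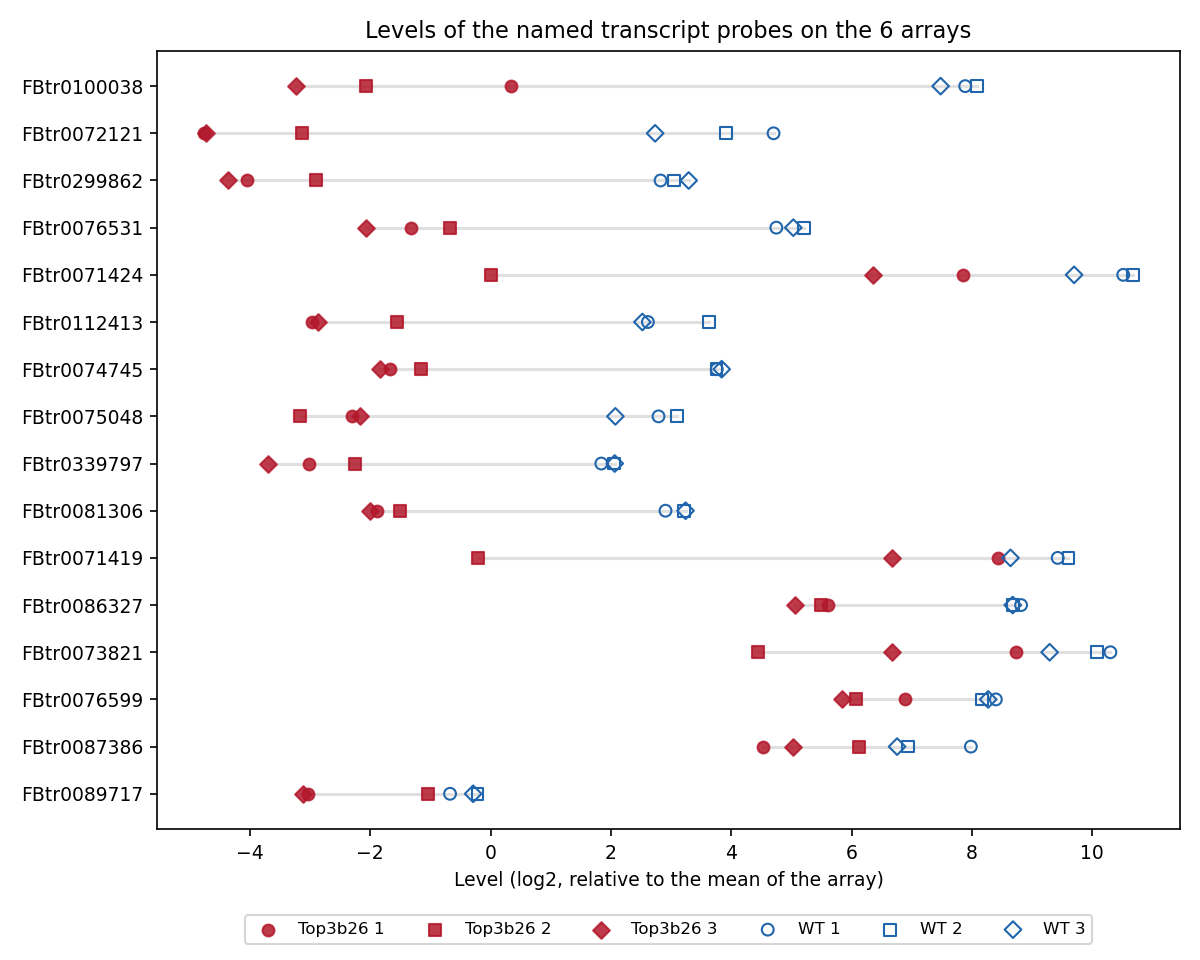
Levels of 16 member probes on the 6 arrays (log2, relative to the mean of the array), with the 10 largest decreases, the 5 highest WT levels and the 3 members closest to the threshold, ordered by difference. Filled red symbols are the 3 Top3b26 arrays and open blue symbols the 3 WT arrays; FBtr0071424 and FBtr0071419 have Top3b26 2 near 0 and the other mutant arrays above 6.

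Among the 5 members with the highest WT levels, 3 were far lower on Top3b26 2 than on the other mutant arrays. FBtr0071424, which was also among the 10 largest decreases, had levels of 7.85, 0.00 and 6.36 on Top3b26 1, 2 and 3 and of 10.52, 10.68 and 9.70 on the WT arrays. FBtr0071419 had levels of 8.43, -0.20 and 6.67 in Top3b26 and 9.43, 9.61 and 8.64 in WT. FBtr0073821 had levels of 8.73, 4.45 and 6.68 in Top3b26 and 10.30, 10.09 and 9.29 in WT. At FBtr0071419 the mutant arrays spanned 8.63, and Top3b26 1 was only 0.21 under the lowest WT level. Without Top3b26 2, FBtr0071424 differed by -3.19 in place of -5.56 and FBtr0073821 by -2.19 in place of -3.28. Without it FBtr0071419 differed by -1.67 in place of -4.26 and no longer met the rule. At the others of these 5 the mutant arrays lay closer together, spanning 0.54 at FBtr0086327 and 1.05 at FBtr0076599. FBtr0086327 had levels of 5.60, 5.50 and 5.06 in Top3b26 and 8.82, 8.68 and 8.68 in WT, a difference of -3.34. FBtr0076599 had levels of 6.90, 6.08 and 5.84 in Top3b26 and 8.40, 8.17 and 8.27 in WT, a difference of -2.01. Of its other measured probes, 1 differed by -1.74 without overlap between the groups. Another, brighter in WT at a mean of 10.32, differed by only -0.14, and its groups overlapped.

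The 3 mutant preparations were then compared across all members. Against the WT mean, the median difference was -2.63 on Top3b26 1, -2.497 on Top3b26 2 and -3.03 on Top3b26 3. A level lower than the WT mean by 2 or more was found at 106, 94 and 121 of the 130 probes on these arrays, and on all 3 at 76 probes. The median SD of the members was 0.598 in Top3b26 and 0.279 in WT, against 0.464 and 0.195 over all measured FlyBase probes. The SD was larger in Top3b26 than in WT at 103 of 130 members and at 88.5% of all measured FlyBase probes. The wider spread of the mutant arrays was thus found across the measured probes and not in the members alone.

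The mutant arrays spanned less than 1 at 58 members and more than 3 at 10. Of these 10, Top3b26 3 was more than 3 above Top3b26 2 at 6. Across all measured FlyBase probes, 665 (3.99%) showed this, and its part in the members' differences was not tested. Besides FBtr0071424 and FBtr0071419, FBtr0085450 had levels of 4.44, 0.12 and 5.16 in Top3b26 and 7.55, 7.24 and 6.41 in WT. FBtr0331522 had levels of 0.84, -1.56 and 2.20 in Top3b26 and 3.37, 3.40 and 3.16 in WT. The last pair, FBtr0070427 and FBtr0070428, had another pattern, in which both Top3b26 1 and Top3b26 2 were low. Levels of FBtr0070427 were -0.25, -0.52 and 2.94 in Top3b26 and 4.27, 3.66 and 4.34 in WT. Levels of FBtr0070428 were -0.80, -1.12 and 2.01 in Top3b26 and 3.56, 2.94 and 3.52 in WT. Their identifiers differ by 1. After each probe was centered on its own mean, they differed by 0.128 on average (root mean square over the 6 arrays). The median over all pairs of members from different transcripts was 0.828. Other members with identifiers 5 to 9 apart differed by between 0.335 and 1.62, so close identifiers did not always go with close profiles.

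In WT, 103 of 130 members spanned less than 1 between the 3 arrays, and 3 spanned more than 2. In each of these 3, WT 1 was the highest. FBtr0082691 had levels of -3.36, -1.53 and -2.08 in Top3b26 and 2.34, -1.38 and -0.10 in WT, and its gap between the groups was the narrowest of all, at 0.15. The 2 member probes of FBtr0084729 were the others. The first had levels of 2.25, 1.92 and 2.33 in Top3b26 and 5.46, 3.12 and 4.27 in WT. The second had levels of 2.85, 2.36 and 3.23 in Top3b26 and 6.23, 3.50 and 4.75 in WT. Both probes of FBtr0084729 thus gave the same order of all 3 WT arrays.

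At the other end were members with almost no spread within a group, of which those with the smallest sum of SDs were picked after their values were seen. FBtr0072570 had levels of -2.23, -2.03 and -2.29 in Top3b26 and 0.72, 0.77 and 0.72 in WT. FBtr0076029 had levels of -0.69, -0.61 and -0.67 in Top3b26 and 1.28, 1.47 and 1.73 in WT. FBtr0081422 had levels of 1.90, 1.94 and 1.69 in Top3b26 and 3.87, 4.06 and 4.09 in WT. The differences were -2.92, -2.15 and -2.16. In these the distance between the genotypes was at least 1.88 between the closest arrays, while no group spanned more than 0.45.

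**Figure D2:**
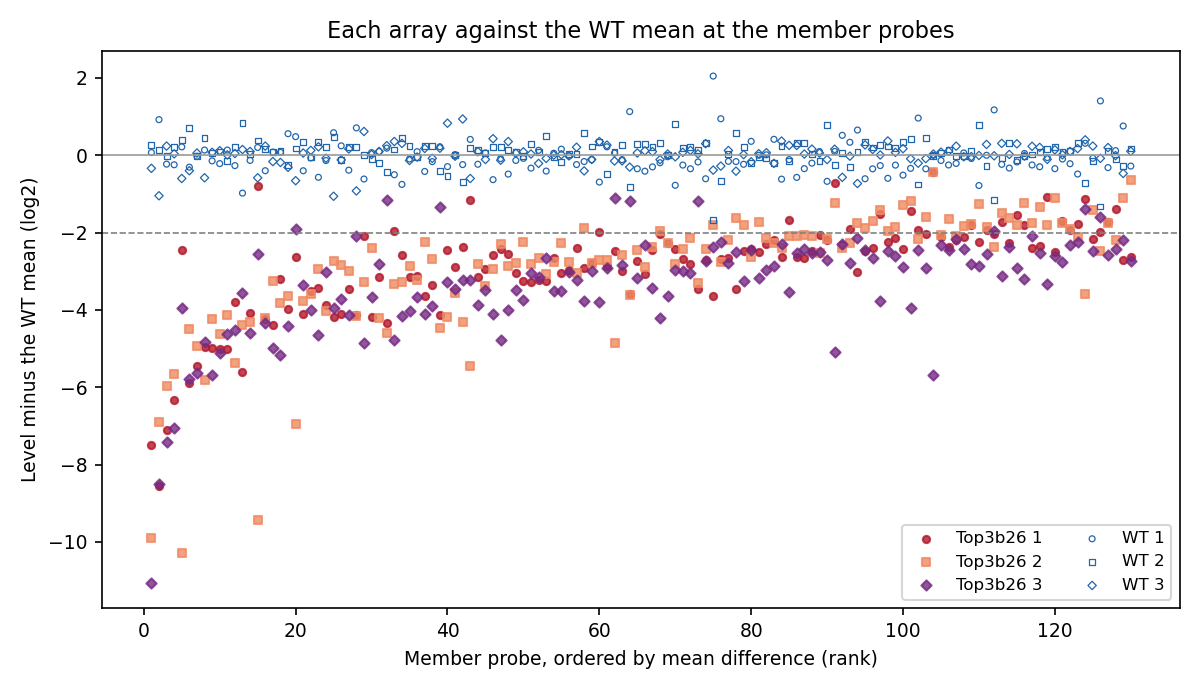
Level on each array minus the WT mean (log2) at the 130 member probes, ordered by their mean difference from the largest decrease on the left, with the dashed line at -2. Filled symbols are the 3 Top3b26 arrays and open blue symbols the 3 WT arrays; the 3 mutant arrays span more than 3 at 10 of the probes.

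Spots of the same probe were compared next, since 65 of the 130 member probes were printed as 2 to 10 spots. The median SD between spots was 0.0520, and at 55 of the 65 it was at most 0.5 on every array. A probe counted as well above background where a share of 0.5 or more of its spots did. At 123 of 130 members, for 112 transcripts, it held for every spot, and at 7 it did not.

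Among these 7, a pair of transcripts owed their membership to 1 spot on 1 array. FBtr0113352 had spots at 3.65 and -5.82 on Top3b26 3, while on the other mutant arrays its spots lay between 4.14 and 4.23 and on the WT arrays between 4.53 and 4.66. FBtr0078623 had spots at 1.18 and -6.50 on Top3b26 3, while its other mutant spots lay between 1.13 and 1.77 and its WT spots between 2.14 and 2.60. With the spots well above background alone, the differences were -0.60 for FBtr0113352 and -1.07 for FBtr0078623, so neither was lower by 2. FBtr0072121, second in the order of decrease, had 1 spot at -6.39, -4.99 and -6.50 on the mutant arrays and another at -3.14, -1.27 and -2.97. The WT spots of FBtr0072121 lay at 4.74, 3.97 and 2.71 and at 4.67, 3.85 and 2.76. Its difference was -6.24 from the spots well above background, against -7.99 from all spots. For the other 4 of the 7, which included FBtr0075048, the difference moved by at most 0.21.

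Each slide held both genotypes, so the difference was also taken within slides. The median of the members was -2.57 on slide 1 and -2.84 on slide 2, against -0.19 and -0.22 for all measured FlyBase probes. It was at or under -2 at 106 of 130 members on slide 1, at 122 on slide 2, and at 98 on both. The 2 slides gave values within 0.5 of each other at 65 members and more than 2 apart at 16. FBtr0339797 differed by -4.96 on slide 1 and -5.05 on slide 2, and FBtr0081306 by -4.95 and -4.99, while FBtr0071419 differed by -1.08 and -5.41 and FBtr0087386 by -2.94 and -1.19. Slide 1 had 1 mutant array and slide 2 had 1 WT array, so these values rest on single arrays. They were also taken from the same levels that chose the members. Since the rule asked for no overlap between the groups, it alone makes the difference negative on both slides at every member. Its threshold also lowers these differences relative to all measured FlyBase probes. The medians and counts by slide are therefore given as a description, and no agreement between slides is read from them.

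**Figure D3:**
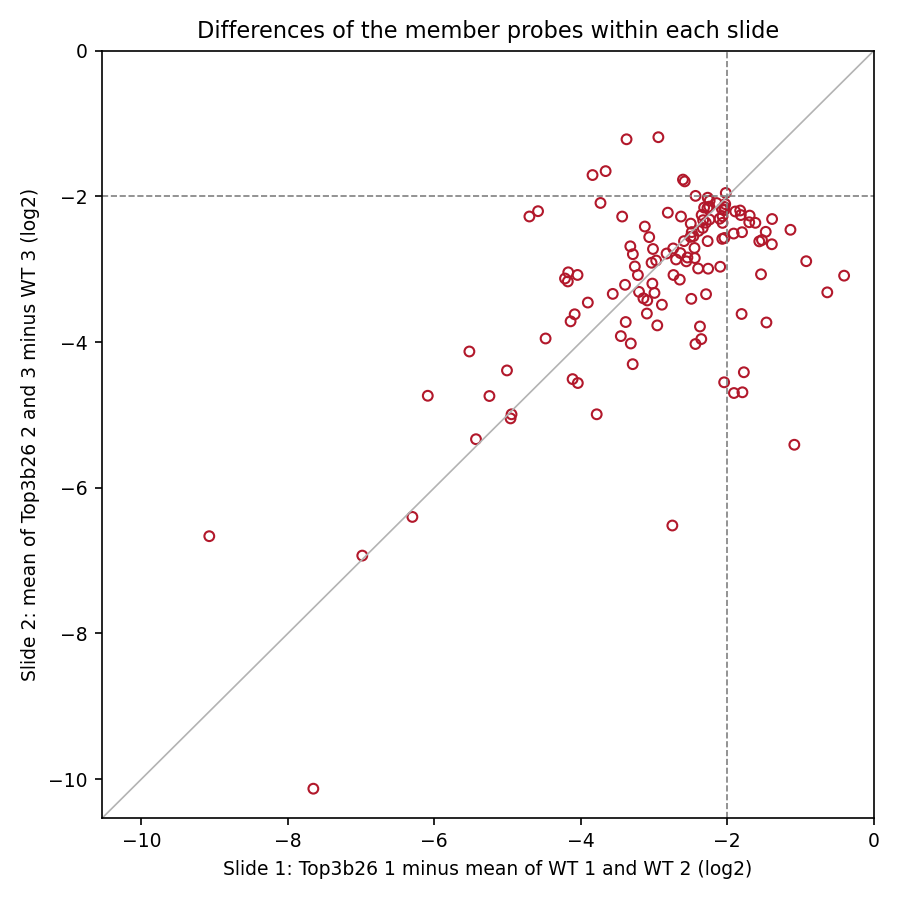
Difference between Top3b26 and WT (log2) of the 130 member probes within slide 2 (vertical axis) against that within slide 1 (horizontal axis), with dashed lines at -2 and the line of equal values. In 98 of 130 both values are at or under -2; the lowest point is FBtr0100038, at -7.65 on slide 1 and -10.13 on slide 2.

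Other probes with the same transcript identifiers were also compared, although where on a transcript each probe lies was not known. Of the 119 transcripts, 80 had a single probe and 39 had others. With more than 1 measured probe there were 32 transcripts. In 9 of the 32 all measured probes were members, in 13 all were lower by 1 or more, and in 17 at least 1 probe was above -0.5. Within a transcript the lowest and highest difference were a median of 1.85 apart, and in 14 of the 32 (43.8%) they were more than 2 apart. Over all 3321 transcripts with more than 1 measured FlyBase probe, the median was 0.191, and 0.753% were more than 2 apart. A transcript was taken here if any of its probes was lower by 2 or more, which by itself widens this distance, and a probe outside the members could not be lower by 2 without overlap.

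In 11 transcripts 2 probes were members, and their differences were a median of 0.155 apart. Such pairs had to pass the same threshold with both probes, which by itself narrows this distance. For FBtr0088432, the first probe had levels of 1.05, -0.13 and -1.71 in Top3b26 and 2.54, 3.15 and 3.77 in WT. The second had levels of 3.34, 1.96 and 0.50 in Top3b26 and 4.79, 5.44 and 5.65 in WT. The differences of the 2 probes of FBtr0088432 were -3.42 and -3.36, with the same order of arrays in both groups. The probes of FBtr0074027 differed by -2.47 each, those of FBtr0082749 by -3.21 and -3.14, and those of FBtr0077183 by -3.17 and -2.73. FBtr0086669 had the largest distance between 2 member probes, with -3.05 and -2.38.

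In 9 transcripts another probe was higher in Top3b26 on average, and in 4 of them it was higher on every mutant array than on any WT array. FBtr0070583 had 2 member probes, with differences of -3.56 and -3.41, and another probe with levels of 3.25, 3.25 and 3.23 in Top3b26 and 1.74, 2.06 and 1.95 in WT, a difference of 1.33. The first of its member probes had levels of 1.39, 2.66 and 1.78 in Top3b26 and 5.75, 5.38 and 5.39 in WT. FBtr0112633 had a member probe at -2.54 and another at 1.19, FBtr0330335 had -2.08 and 1.26, and FBtr0070652 had -3.27 and 0.83. In all 4 transcripts the probes differed in opposite directions, with no overlap between the groups at either. The share of all measured FlyBase probes that were higher without overlap is not given here, so nothing is read from the count of 4.

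Other transcripts had 1 member probe and others closer to 0. FBtr0339797 had a member probe at -4.98 and other probes at -0.68 and -0.22, and FBtr0081306 had -4.92 and -0.73. The second probe of FBtr0081306 had levels of 4.23, 4.20 and 3.95 in Top3b26 and 4.95, 4.68 and 4.95 in WT. FBtr0070244 had 6 measured probes, of which 1 differed by -2.78 and the other 5 by between -0.61 and 0.12. FBtr0309865 had 4, of which 1 differed by -3.08 and the other 3 by between -0.40 and 0.33.

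A further 12 probes of these transcripts were not well above background on all 6 arrays. In 5 they were so on all WT arrays and on 1 or 2 Top3b26 arrays, among them a second probe of FBtr0085450 with levels of 0.44, -4.22 and 1.00 in Top3b26 and 4.59, 4.44 and 3.67 in WT. At this probe as at the member probe, Top3b26 2 was the lowest array, but here its level was not well above background and is only a bound. FBtr0299862, one of the 4 members lower by 6 or more, had 2 such probes, with levels between -4.88 and -3.66 in Top3b26 and between -3.56 and -2.94 in WT. Their differences were -1.28 and -1.04, against -6.83 at the member probe. These levels were close to the lowest levels well above background, which lay between -5.61 and -4.36 on the 6 arrays. A decrease as large as that of the member could therefore not have been seen at them. Why they were so much dimmer in WT than the member probe, and why they differed less, was not tested.

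**Figure D4:**
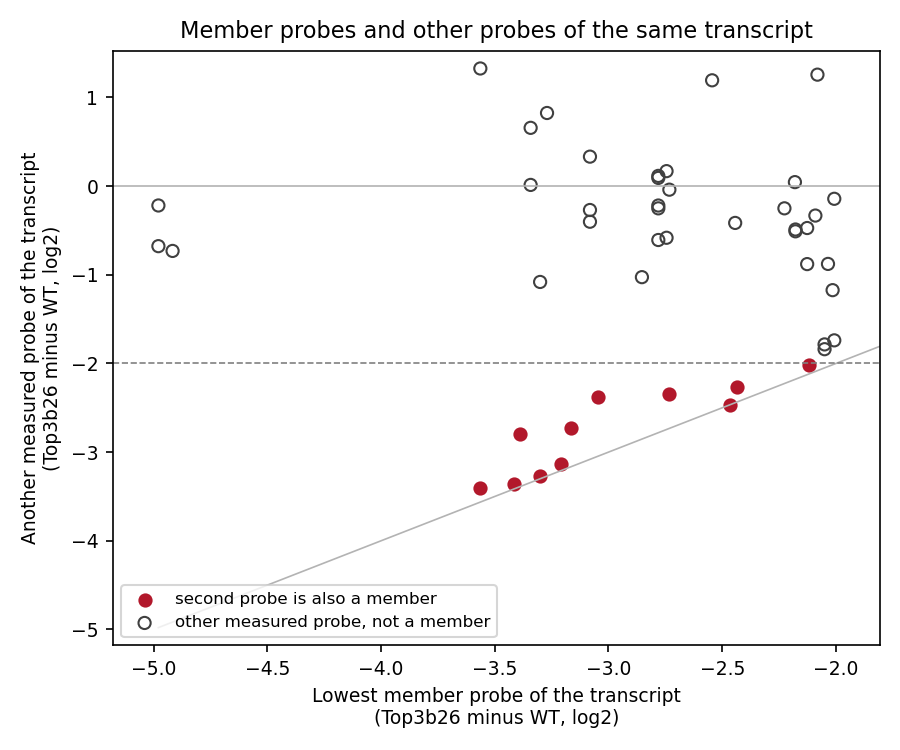
Difference between Top3b26 and WT (log2) of another measured probe of a transcript (vertical axis) against that of its lowest member probe (horizontal axis), with the dashed line at -2 and the line of equal values. Filled circles are the 11 transcripts with 2 member probes and lie at most 0.67 above the line of equal values; open circles are 36 measured probes outside the members, of which 23 are above -0.5.

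At the threshold, the members closest to it were FBtr0076599, FBtr0087386 and FBtr0089717, at -2.01, -2.01 and -2.004. FBtr0089717 was printed as 10 spots and had levels of -3.03, -1.04 and -3.13 in Top3b26 and -0.67, -0.22 and -0.29 in WT. FBtr0087386 had levels of 4.52, 6.12 and 5.02 in Top3b26 and 7.98, 6.94 and 6.76 in WT. Just outside were FBtr0089194, FBtr0080756 and FBtr0085531, at -1.995, -1.995 and -1.993. FBtr0089194 had levels of 2.35, -1.81 and 1.53 in Top3b26 and 2.54, 2.73 and 2.79 in WT. The probes on either side of the threshold were thus nearly equal in difference, and 50 of the 130 members lay between -2.5 and -2.

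Under the same rule turned round, 53 probes for 48 transcripts were higher in Top3b26. Their median difference was 2.75, and 14 of them were higher by 3 or more, while 52 members were lower by as much. These counts depend on the scaling, since the median of all measured FlyBase probes was -0.19. Under median-difference scaling 99 probes met the rule for lower levels, and the number of higher probes under it is not given here. The members were 0.780% of the measured probes with a FlyBase transcript identifier, and 29 of 3896 measured probes without one (0.744%) met the other conditions of the rule.

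Across all probes, limma compared Top3b26 with WT and called 190 of 23303 tested probes (0.815%) at a Benjamini-Hochberg adjusted p of 0.05 or less, 156 of them (0.669%) lower in Top3b26. Of the measured FlyBase probes, 82 (0.492%) were called lower, and 65 of these were members. The other 65 members were not called. Since the members were chosen on this contrast, nothing is read from that count. Called members had a median difference of -2.999 and a median SD in Top3b26 of 0.370, and those not called had -2.47 and 0.887. Of the 10 largest decreases 9 were called, and the exception was FBtr0071424, with its low value on Top3b26 2. The number of called members was 74 without Top3b26 2, 42 without Top3b26 3 and 12 without Top3b26 1. It was 4, 0 and 2 without WT 1, WT 2 and WT 3. Over all tested probes, the called numbered 334, 110, 33, 20, 1 and 15 in the same order. Without WT 2, limma called 0 members after adjustment, while 120 of the 130 had an unadjusted p under 0.05. With all 6 arrays 127 members had one, as did 2584 of the 23303 tested probes. With slide as a term in the fit, 14 members and 44 probes in all were called. Nothing is read from these counts either, since the members were chosen on this contrast. Nothing in the labels says that the 3 independently prepared RNA samples of a genotype came from separate cultures, so these tests measure the spread between preparations only.

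Some members of different transcripts followed each other closely over the 6 arrays. FBtr0334496 had levels of -0.95, -2.67 and -1.75 in Top3b26 and 1.22, 0.97 and 2.34 in WT. FBtr0082860 had levels of -0.96, -2.89 and -1.80 in Top3b26 and 1.18, 0.72 and 2.36 in WT. After centering, these 2 were 0.104 apart (root mean square over the 6 arrays). FBtr0073894 and 1 of the 2 member probes of FBtr0300456 were 0.0822 apart after centering, with differences of -2.41 and -2.27. Every member is high in WT and low in Top3b26 by the rule, which alone makes their profiles alike, so these distances are given as a description.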

How the data were processed

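Total RNA of 6 head preparations was measured on 1-color Agilent 4x44K Drosophila V2 arrays. The deposited intensity values are, per the file headers, the processed signal of Feature Extraction 11.5.1.1, in which the authors' software subtracted background and spatial trends within an array but did not normalize between arrays. Deposited flags (0 or 1) mark spots well above background and outlier spots. A further table from the authors holds score values (z-scores of log signal), which differed from z-scores recomputed over all spots by at most 0.00502. Saturated spots numbered 0.

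Following the z-transformation of the methods, log2 signals were centered and divided by their SD per array over the 43602 non-control spots, and the mean SD (3.89) set the common scale. Outlier spots were left out and spots of a probe averaged. R 4.3.3 and limma 3.58.1 (lmFit, eBayes, no covariate) compared Top3b26 with WT across 23303 probes that were well above background throughout 1 group or both. The fit was tested on simulated data. The mean signal was not among the columns, so normexp used the median signal.

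The members, lists and rules were chosen with earlier results of these data known. Named are the 10 largest decreases, the 5 members highest in WT, the 3 members and 3 other probes closest to the threshold, and other probes of these transcripts. For other members named, the choice followed from their values. Alternatives changed scaling, background correction, spot treatment, blocks, thresholds and arrays. Sequences of probes were not analysed here.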

Additional observations from a re-analysis of the deposited data

How the results depend on the processing

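The rule gave 130 member probes, and between 99 and 169 when scaling, background correction, source of values, treatment of spots, slide, replicate number or single arrays were changed. All 15 of these alternatives took 80 of the 130, for 72 transcripts. The number was 524 at a threshold of -1, 52 at -3, 131 with overlap allowed, and 212 where only 1 group had to be measured. It ran from 118 to 168 when 1 array was left out. The number of transcripts, 119, ran from 106 to 153 when 1 array was left out.

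Normalization moved the center of all probes. The median difference of the tested probes was -0.15 and became 0.03 under median-difference scaling, a shift of 0.18, which was chosen after seeing the data. Under it 99 probes met the rule, all of them members, the called probes numbered 482, of which 309 (64.1%) were lower, and 3 other probes of member transcripts were at or under -1 where 6 had been. With normexp the arrays were rescaled to the same SD from one of 2.52, which by construction enlarges differences between bright levels, and the difference of FBtr0100038 was -13.04. Of 240 values of the 16 named members under alternatives, 231 moved by less than 1 SD between replicates, and 9 moved by more, all under normexp. Changes of sign numbered 0, which the choice of members made likely. With 3 arrays per group, leaving out 1 array cannot move a difference by as much as 1 such SD. The replicate block leaves the difference unchanged by design. The 231 are therefore no measure of stability, and they include FBtr0071419, at -4.26 with all arrays and -1.67 without Top3b26 2.

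The number of called probes, 190, with 156 lower, was 352 with 266 lower under the 75th percentile shift, 43 with 39 lower under normexp, 44 with 42 lower with slide as a block, 123 without the filter for dim probes, and 88 with 72 lower by the methods' test followed by Benjamini-Hochberg adjustment. The called members, 65, were 38 under quantile normalization, 22 under normexp, 14 with slide as a block and 21 by the methods' test. Unadjusted, the methods' test gave 119 of 130 members and 2859 probes in all. When any 1 array was left out, there were 1 to 334 called probes, 1 to 262 called lower, 0 to 74 called members and 4 to 7 other probes at or under -1. With the replicate block, 12 probes, all lower, and 1 member were called. Same-numbered arrays had deviations that correlated at 0.569, 0.599 and -0.364 across probes, which does not settle whether they were pairs. The main fit did not take a shared number as a pair. What caused these shifts was not tested. Signal over background was lowest on Top3b26 2, which limits what dim probes show there.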

Other observations

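Of the 29 probes without a FlyBase transcript identifier that met the other conditions of the rule, 3 had a gene name in the reference table. The long non-coding RNA lncRNA:CR43241 differed by -2.35 (Top3b26 minus WT, log2). The other 2 were CG11841, at -3.43, and Nepl4, a gene of the neprilysin-like family of peptidases, at -3.16. By the flags alone, 37 probes with a FlyBase identifier stood well above background throughout Top3b26 and nowhere in WT. The reverse held at 44, where only a bound on the difference can be had, and these are not among the members.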
